A study of Mus musculus with 6 samples.

Results

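The genes described here are 10 regulators of globin switching, the change by which red cells stop making embryonic and fetal globins and make adult ones. They were Bcl11a, Sox6, Zbtb7a, Myb, Nr2c1, Nr2c2, Lin28b, Igf2bp1, Chd4 and Mbd2. They were taken by gene symbol, each through its brightest probe set that carries a single gene, and all 10 were among the 19937 genes measured in this way. RNA came from whole livers of FVB/NJ mouse embryos at embryonic day 13.5, per the labels from a colony kept as Klf1+/-. There were 3 wildtype and 3 Klf1-/- embryos, each hybridised to an Affymetrix gene array of its own. Klf1 is a zinc finger activator of red cell genes, and no label says what was changed in the gene.

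Bcl11a and Zbtb7a are zinc finger repressors that hold the embryonic and fetal beta-like globin genes silent in definitive red cells, and Sox6 works with Bcl11a in the mouse. Klf1 is known to activate Bcl11a and Zbtb7a. Chd4 and Mbd2 belong to NuRD, a chromatin remodelling and deacetylase complex that these repressors recruit. Nr2c1 and Nr2c2 are the nuclear receptors TR2 and TR4, which bind direct repeats in embryonic globin promoters. Myb keeps erythroid progenitors dividing and is a quantitative trait gene for fetal hemoglobin in humans. Lin28b blocks maturation of let-7 microRNAs and marks fetal blood formation, and Igf2bp1 is an RNA-binding protein of fetal type that let-7 represses.

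All values are log2 intensities, changes are knockout minus wildtype, the error after ± is the standard error of the limma fit unless SD is named, and n = 3 per group. A gene counted as called where its p, adjusted by Benjamini-Hochberg over all genes, was under 0.05. Of the 10 members 5 were lower (Sox6, Zbtb7a, Bcl11a, Lin28b and Mbd2), 1 was higher (Nr2c1) and 4 were not called (Myb, Nr2c2, Igf2bp1 and Chd4). Over all genes 8.26% were called lower, 10.8% higher and 19.1% in either direction. The groups did not overlap in 9 members, where over all genes 37.5% of genes had no overlap. The median change of the members was -0.21, and that of all genes was -0.02. The members were picked for their part in globin control and with results of these arrays known, so the counts describe them and support nothing further.

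**Figure D1:**
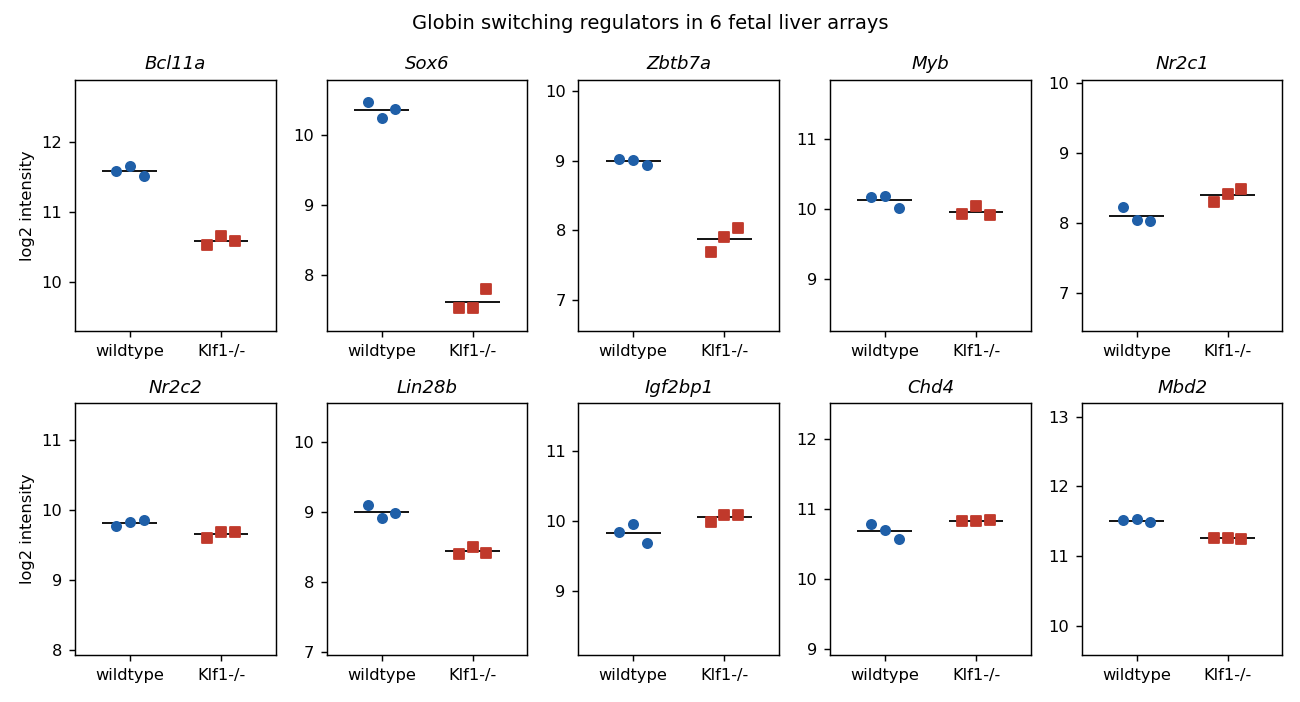
Log2 intensity of each of the 10 regulators on every array, with wildtype as blue circles, Klf1-/- as red squares and a line at each group mean; every panel spans the same log2 range. Sox6 shows the widest gap between groups, Bcl11a, Zbtb7a and Lin28b are clearly separated, and the groups touch only in Myb.

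Sox6 had the largest change of the members. It read 10.47, 10.25 and 10.38 on the wildtype arrays and 7.54, 7.52 and 7.80 on the knockout arrays. Every knockout value lay far below every wildtype value. The change was -2.75 ± 0.10 (limma adjusted p = 2.55e-08), a 6.72-fold lower intensity, with a 95% interval from -2.97 to -2.53. Among all 19937 genes it was the 19th lowest change. Sox6 is a group D Sox factor, and its close relatives Sox5 and Sox13 were not called. Sox5 changed by -0.05 ± 0.09 (0.0066 without knockout replicate 1) and Sox13 by -0.10 ± 0.09.

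Zbtb7a, also called LRF, read 9.02, 9.01 and 8.93 in wildtype and 7.69, 7.91 and 8.04 in the knockout. The knockout arrays were all lower, and they were spread more widely (SD 0.18) than the wildtype arrays (SD 0.05). The change was -1.11 ± 0.10 (limma adjusted p = 1.84e-05), or 2.15-fold lower, with a 95% interval from -1.32 to -0.89. Its relative Zbtb7b, a lymphoid lineage factor, went the other way. It read 6.43, 6.50 and 6.72 in wildtype and 6.89, 7.28 and 6.90 in the knockout, a change of 0.47 ± 0.12 (limma adjusted p = 0.0188). That call was lost when wildtype replicate 1, wildtype replicate 2 or knockout replicate 2 was left out, over every probe set and without moderation. Zbtb7c changed by -0.21 ± 0.08 and was not called, except after centring on the 75th percentile (adjusted p = 0.0412) and without moderation (adjusted p = 0.0476).

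Bcl11a read 11.58, 11.66 and 11.52 on the wildtype arrays and 10.52, 10.66 and 10.58 on the knockout arrays. The knockout arrays were all lower, and the gap was many times the spread within either genotype (SD 0.07 in both). The change was -1.001 ± 0.08 (limma adjusted p = 9.52e-06), or 2.001-fold lower, with a 95% interval from -1.18 to -0.82. Its relative Bcl11b, a T cell factor, averaged 6.60 in wildtype and 6.14 in the knockout, and its change of -0.46 ± 0.16 was not called (adjusted p = 0.0662). It was called with array weights (adjusted p = 0.0244) and without wildtype replicate 1 (adjusted p = 0.0487), while without knockout replicate 3 the change was -0.28 (adjusted p = 0.209).

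The start regions of these 3 genes are shown because Klf1 is a protein that binds CACCC-type boxes. The 3 were picked by outcome, as the members with the largest falls, and those of Lin28b and Mbd2, which also fell, are not printed. Windows run from 250 bases before to 50 bases after an annotated start and come from RefSeq with build GRCm38.p6. Matches to the motif CCNCNCCC on either strand are in capitals, and neighbouring matches can overlap. Sox6 has 6 such windows. Only 2 of them hold a match, and the one with 2 matches is printed.
Bcl11a (chr11:24080445-24080744, forward strand): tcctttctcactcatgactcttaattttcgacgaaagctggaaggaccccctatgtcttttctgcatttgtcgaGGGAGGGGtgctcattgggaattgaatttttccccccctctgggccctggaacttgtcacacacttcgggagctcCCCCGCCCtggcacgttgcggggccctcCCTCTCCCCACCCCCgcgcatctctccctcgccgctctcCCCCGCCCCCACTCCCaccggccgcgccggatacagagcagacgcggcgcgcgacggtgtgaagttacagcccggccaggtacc
Zbtb7a (chr10:81136021-81136320, forward strand): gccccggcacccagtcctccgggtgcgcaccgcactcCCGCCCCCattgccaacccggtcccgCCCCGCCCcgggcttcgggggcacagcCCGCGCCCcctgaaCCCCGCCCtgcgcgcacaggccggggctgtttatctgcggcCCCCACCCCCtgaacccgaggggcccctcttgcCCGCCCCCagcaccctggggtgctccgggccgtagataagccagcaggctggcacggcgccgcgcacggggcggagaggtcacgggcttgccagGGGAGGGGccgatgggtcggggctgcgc
Sox6 (chr7:116030998-116031297, reverse strand): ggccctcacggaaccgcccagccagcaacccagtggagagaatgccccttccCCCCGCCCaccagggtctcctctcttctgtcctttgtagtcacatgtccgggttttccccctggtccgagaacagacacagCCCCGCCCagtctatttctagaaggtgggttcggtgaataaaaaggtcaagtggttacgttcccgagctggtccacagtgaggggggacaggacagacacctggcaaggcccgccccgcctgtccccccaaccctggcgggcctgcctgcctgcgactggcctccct
The Bcl11a window held 8 matches, the Zbtb7a window 8 and the Sox6 window 2. Such a match was present in 49.5% of all 32851 windows of 300 bases, and it was also present in members that were not called: Myb had 4 matches, Nr2c2 had 2 and both Chd4 windows had 6. Lin28b, which fell, and Nr2c1, which rose, had 0 matches. The windows of Bcl11a and Zbtb7a held 63.0% and 77.7% of G and C. Neither the number of matches per window nor the share of G and C was computed over all windows, so these values have no background. A second motif, GATAA, the core that Gata factors bind, was found 2 times in the Zbtb7a window, 2 times in the Lin28b window and 0 times in those of Bcl11a, Myb, Nr2c1 and Nr2c2. It was in 3 of the 6 Sox6 windows, though not in the printed one, and in 1 of the 2 Chd4 windows, and 25.4% of all windows hold it. For Igf2bp1 and Mbd2 no window was used. These matches describe letters in the windows and were not tested against binding.

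Nr2c1 and Nr2c2, which form the TR2 and TR4 heterodimer, had small changes of opposite sign, 1 of them called. Nr2c1 read 8.23, 8.05 and 8.02 in wildtype and 8.31, 8.42 and 8.48 in the knockout. The highest wildtype array lay just below the lowest knockout array. Its change was 0.30 ± 0.09 (limma adjusted p = 0.034), or 1.23-fold higher. Leaving out wildtype replicate 2 or 3, or knockout replicate 2 or 3, ended this call, with adjusted p of 0.106, 0.0905, 0.102 and 0.132. It was also lost after quantile normalization, with both other centrings, over every probe set and without moderation (adjusted p from 0.0538 to 0.11). Nr2c2 read 9.77, 9.83 and 9.85 in wildtype against 9.60, 9.68 and 9.68 in the knockout. The groups did not overlap, but the change of -0.16 ± 0.08 was not called (adjusted p = 0.156), and its 95% interval ran from -0.33 to 0.00. Within each array, the difference Nr2c1 minus Nr2c2 was higher in the knockout by 0.47, with no overlap between groups (exact permutation p = 0.10, 2-sided, the smallest that 3 arrays against 3 can give).

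The NuRD members Mbd2 and Chd4 had small changes. Mbd2, a reader of methylated DNA, read 11.52, 11.53 and 11.49 in wildtype and 11.26, 11.27 and 11.24 in the knockout. Replicates of Mbd2 agreed closely (SD 0.02 and 0.01), and the knockout arrays were all lower. The change was -0.25 ± 0.07 (limma adjusted p = 0.0323), or 1.19-fold lower. The call was lost without wildtype replicate 1 or 2 or any 1 of the knockout arrays (adjusted p from 0.0591 to 0.113), and also after quantile normalization and over every probe set (adjusted p from 0.0577 to 0.071). Chd4, the remodelling ATPase of NuRD, read 10.79, 10.70 and 10.57 in wildtype and 10.83, 10.83 and 10.85 in the knockout. Its change of 0.15 ± 0.08 was not called (adjusted p = 0.238), with a 95% interval from -0.03 to 0.33; without wildtype replicate 3 it was 0.0878. Its alternative ATPases Chd3, at -0.26 ± 0.10, and Chd5, at -0.10 ± 0.10, were not called either. Without knockout replicate 2, Chd3 was at -0.17 and Chd5 at -0.04, and without knockout replicate 1 Chd5 was at -0.21. Of the other methyl-binding genes, Mbd1 was at -0.05 ± 0.08, Mbd3 at 0.05 ± 0.09 and Mbd4 at -0.02 ± 0.08, and none of these 3 was called; the sign of Mbd3 turned without wildtype replicate 3 and that of Mbd4 with array weights and without wildtype or knockout replicate 1.

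All 15 NuRD subunits in the list were measured. Of these 1 was lower (Mbd2), 2 were higher and 12 were not called, and the list median was 0.05. Among all genes 8.26% were called lower and 10.8% higher, and the counts are not read as a result about NuRD. The 2 that rose are Mta genes, which give the complex its targeting subunit. Mta3 read 12.08, 11.90 and 11.76 in wildtype and 12.66, 12.69 and 12.61 in the knockout, a change of 0.74 ± 0.09 (limma adjusted p = 0.000253). A second, dim probe set of Mta3 changed by -0.11, and the mean of both gave 0.32. Mta1 went from 9.65 ± 0.02 to 10.01 ± 0.02 (SD, n = 3), a change of 0.35 ± 0.07 (limma adjusted p = 0.00618). The deacetylase genes Hdac1 and Hdac2, the histone chaperone genes Rbbp4 and Rbbp7, and Mta2, Gatad2a, Gatad2b and Cdk2ap1 were not called.

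**Figure D2:**
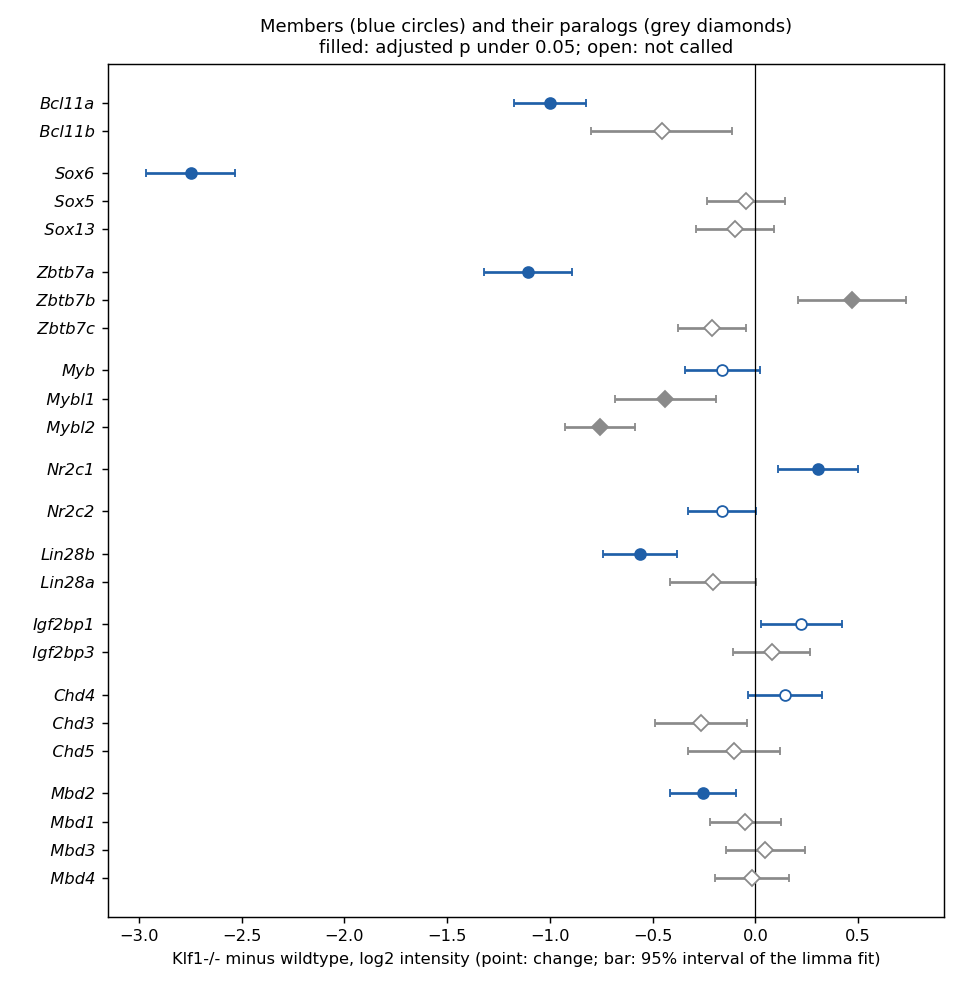
Change of each regulator (blue circle) and of its measured paralogs (grey diamond), as knockout minus wildtype log2 intensity with the 95% interval of the limma fit; filled symbols were called at an adjusted p under 0.05. Sox6 at -2.75 stands apart from Sox5 and Sox13 near 0, and Zbtb7a and Zbtb7b lie on opposite sides of 0.

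Lin28b read 9.11, 8.92 and 8.99 in wildtype and 8.41, 8.51 and 8.42 in the knockout. Every knockout array was lower than every wildtype array. The change was -0.56 ± 0.08 (limma adjusted p = 0.0007), or 1.48-fold lower, with a 95% interval from -0.74 to -0.38. Its paralog Lin28a, typical of stem cells, averaged 6.91 in wildtype and 6.70 in the knockout, and its change of -0.21 ± 0.09 was not called (adjusted p = 0.151), except without wildtype replicate 3 (adjusted p = 0.0347). Igf2bp1 read 9.85, 9.95 and 9.68 in wildtype and 9.98, 10.09 and 10.09 in the knockout. Wildtype replicate 2 lay just below knockout replicate 1, and the change of 0.22 ± 0.09 was not called (adjusted p = 0.106). A second probe set of Igf2bp1 changed by 0.08. Igf2bp3 changed by 0.08 ± 0.09, or 0.0162 without wildtype replicate 3, and was not called.

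The list of further genes of the Lin28, let-7 and Igf2bp pathway had 12 of 15 members measured. Of these 1 was lower, 2 were higher and 9 were not called, with a median of 0.02. Among all genes 8.26% were called lower and 10.8% higher. Tut7, a uridylyltransferase that tags RNAs for decay, fell by 0.55 ± 0.09 (limma adjusted p = 0.00192). Arid3a, a DNA-binding factor of fetal blood cells and a let-7 target, rose by 0.62 ± 0.09 (limma adjusted p = 0.000539). Dis3l2, the exonuclease that degrades uridylated let-7 precursors, rose by 0.36 ± 0.08 (limma adjusted p = 0.00764). Of the let-7 targets Hmga2, Trim71 and Igf2bp3, none was called. Centring on the 75th percentile gave 2 lower genes in this list, as did leaving out wildtype replicate 3.

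The precursor genes of let-7, the microRNAs that Lin28b holds back, were read from their own probe sets, a list added after the platform's names were seen. The mature forms shown here share the seed, bases 2 to 8, in capitals, and are from RefSeq with build GRCm38.p6.
let-7c-5p: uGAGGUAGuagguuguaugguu
let-7a-5p: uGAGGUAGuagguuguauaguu
miR-98-5p: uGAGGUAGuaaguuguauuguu
Of 10 precursor genes measured, 9 were matched to a mature 5p form, 8 distinct forms in all, and all 9 had this seed. The signal of 7 of the 10 lay below the lower quartile of the arrays. Mirlet7c-1, 1 of these 7 dim genes and dropped by both filters on dim genes, was called higher, reading 4.05, 4.23 and 4.06 in wildtype and 4.57, 4.67 and 4.61 in the knockout, a change of 0.50 ± 0.08 (limma adjusted p = 0.00173). The other 9 were not called, with Mirlet7d at 0.26 (adjusted p = 0.0779). These probe sets read longer RNA from the precursor region and do not measure the mature microRNA, which is what Lin28b controls.

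Myb was the 1 member whose groups overlapped. It read 10.17, 10.19 and 10.02 in wildtype and 9.94, 10.04 and 9.92 in the knockout. Wildtype replicate 3 lay below knockout replicate 2, and the change of -0.16 ± 0.08 was not called (adjusted p = 0.197), with a 95% interval from -0.34 to 0.02. Its relatives did change. Mybl2, the B-Myb factor of dividing cells, read 10.17, 10.06 and 10.12 in wildtype and 9.29, 9.38 and 9.40 in the knockout, a change of -0.76 ± 0.08 (limma adjusted p = 5.38e-05). Mybl1 fell by 0.44 ± 0.11 (limma adjusted p = 0.0191), a call lost without knockout replicate 1 or 2, over every probe set and without moderation.

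Differences between a member and its paralog were also compared within arrays, for 15 pairs. In 13 pairs the groups did not overlap, and each of these had the smallest p possible (exact permutation p = 0.10, 2-sided; 0.115 after Benjamini-Hochberg adjustment over the 15 pairs). The design cannot reach 0.05 in this test. In 9 of the 10 members the groups did not overlap even without a paralog, against 37.5% of all genes. Other gene pairs were not counted, so the 13 pairs describe these genes and support nothing further. The largest differences were those of Sox6 with Sox5, at -2.70, and with Sox13, at -2.65, followed by Zbtb7a with Zbtb7b at -1.58 and Zbtb7a with Zbtb7c at -0.90. Myb with Mybl2 gave 0.60, Bcl11a with Bcl11b -0.54 and Lin28b with Lin28a -0.35. The pairs whose groups overlapped were Myb with Mybl1 and Chd4 with Chd5 (exact permutation p = 0.20 for each).

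Other regulators and co-repressors of globin switching changed by smaller amounts than Sox6, Zbtb7a and Bcl11a. Of 30 listed, 29 were measured. Of these 6 were lower, 3 were higher and 20 were not called, with a median of -0.01. Among all genes 8.26% were called lower and 10.8% higher. Foxo3, a forkhead factor of red cell maturation, fell by 0.60 ± 0.08 (limma adjusted p = 0.000326), reading 10.22, 10.34 and 10.38 in wildtype and 9.72, 9.72 and 9.72 in the knockout. Eif2ak1, the heme-regulated kinase HRI, fell by 0.45 ± 0.08 (limma adjusted p = 0.00197), and Spop, a ubiquitin ligase adaptor, fell by 0.40 ± 0.08 (limma adjusted p = 0.0055). The erythroid factor Tal1 fell by 0.33 ± 0.08, and Ikzf1, a lymphoid and erythroid zinc finger factor, by 0.33 ± 0.08. Atf4, a stress factor downstream of HRI, fell by 0.30 ± 0.08. The call of Ikzf1 was lost without knockout replicate 3, and that of Atf4 without wildtype replicate 2 or knockout replicate 2 or 3.

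The 3 regulators that rose were Hic2, Ehmt2 and Pogz. Hic2, a repressor known to bind Bcl11a regulatory sequence, read 7.58, 7.70 and 7.74 in wildtype and 8.23, 8.28 and 8.25 in the knockout. Its knockout values were all higher, with a change of 0.58 ± 0.08 (limma adjusted p = 0.000451). Ehmt2, the histone methyltransferase G9a, rose by 0.29 ± 0.08 (limma adjusted p = 0.0257), and Pogz, a chromatin protein, by 0.25 ± 0.07 (limma adjusted p = 0.042). Of the 3, Hic2 alone kept its call when wildtype replicate 1 or 3 or knockout replicate 2 or 3 was left out, over every probe set, after quantile normalization and with both other centrings; Pogz was not called with any 1 array left out. Among genes not called were the co-repressor and silencing genes Kdm1a, Rcor1, Dnmt1, Ezh2 and Suz12 and the LIM adaptor gene Ldb1.

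**Figure D3:**
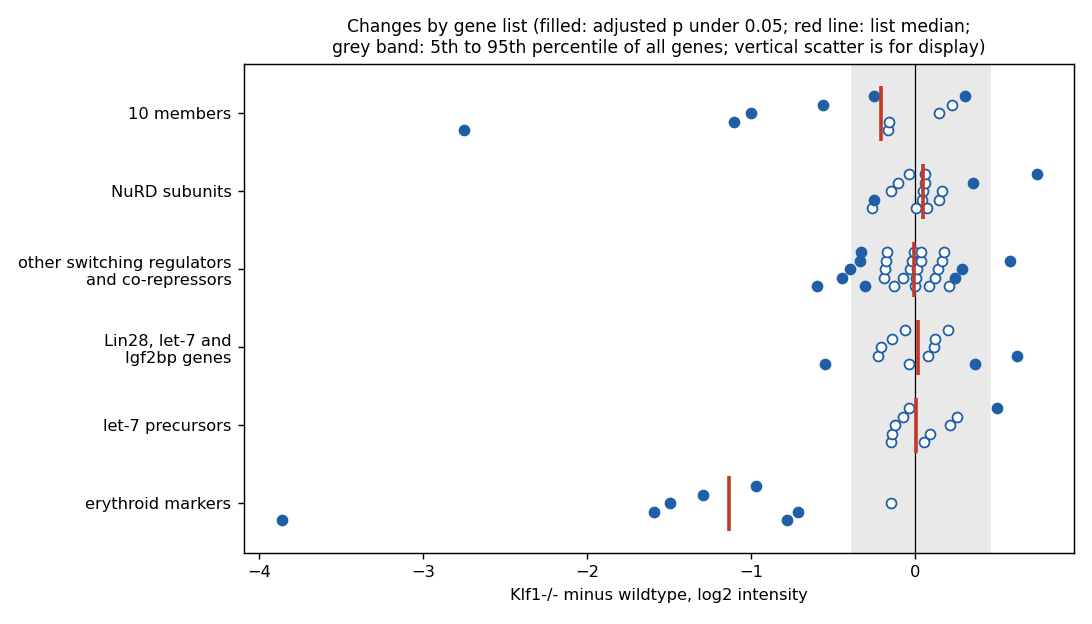
Change of every measured gene of 6 lists, as knockout minus wildtype log2 intensity; filled points were called, the red line is the list median, and the grey band holds the 5th to 95th percentile of all genes, from -0.39 to 0.46. Sox6, Zbtb7a, Bcl11a and Lin28b lie to the left of the band, as do 7 of the 8 erythroid markers.

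The whole liver holds other cells too, and the markers of some of them moved beside these genes. Among all genes 8.26% were called lower and 10.8% higher. The sums given below add linear intensities, so the brightest genes of a list weigh most. Of 8 measured erythroid markers 7 fell and 1 was not called, with a median of -1.13, and the summed intensity of the list was 50268 to 55050 in wildtype and 25416 to 27598 in the knockout. The changes of Bcl11a and Zbtb7a were close to that median, but single markers ran from -3.86 (Tspo2) to -0.15 (Rhag, not called). The change of Sox6 was larger than those of all the markers but Tspo2. Erythroid factors outside the marker list, taken from the other regulators, differed. Gata1 was at -0.02 ± 0.08 and was not called, while Tal1 at -0.33 ± 0.08 and Foxo3 at -0.60 ± 0.08 were called lower. In whole livers, fewer cells of a type and less RNA per cell cannot be told apart. Of 9 measured progenitor markers 5 rose and 4 were not called, and their summed intensity was 2749 to 2846 in wildtype and 3626 to 4086 in the knockout. All 9 megakaryocyte markers measured rose, with sums of 19339 to 20406 and 28576 to 36786. Among macrophage markers 7 of 10 fell, with sums of 5601 to 6719 and 3799 to 4264, and among granulocyte markers 5 of 10 rose, with sums of 5713 to 6397 and 7315 to 9219. Of 9 hepatoblast markers 2 fell (47867 to 57290 and 46100 to 49863), of 8 mesenchymal markers 1 fell (3035 to 4854 and 2863 to 3332) and of 8 endothelial markers 1 rose (3658 to 5216 and 3981 to 4753). Lymphoid cells also use Bcl11a: of 9 B lymphoid markers 1 rose (637 to 680 and 691 to 756), and of 7 plasmacytoid dendritic cell markers 2 rose (1009 to 1073 and 1163 to 1251). The part of these cells in the changes of the members was not tested.

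The gene targeted in the knockout, Klf1, read 10.59, 10.58 and 10.76 in wildtype and 9.05, 9.38 and 9.12 in the knockout; whether the probe set reads the altered part is not known, so it may check nothing. Among the embryonic globin genes that Bcl11a and Sox6 repress, Hbb-bh1 read 9.92, 10.09 and 10.23 in wildtype and 11.82, 12.02 and 12.08 in the knockout, a change of 1.89 ± 0.10 (limma adjusted p = 5.85e-07). Of 12 listed globin genes 6 were measured alone; 1 was higher, 2 were lower and 3 were not called, and the adult beta and alpha globins were not among those measured. The 2 that fell were copies of theta globin, between which probes can be shared. Hbq1b read 10.83, 10.63 and 10.79 in wildtype and 10.32, 10.25 and 10.15 in the knockout, a change of -0.51 ± 0.09 (limma adjusted p = 0.00213). Hbq1a fell by 0.996 ± 0.14 (limma adjusted p = 0.000613), a call lost without moderation (adjusted p = 0.0607). The embryonic genes Hbb-y and Hba-x were not called, nor was Hbb-bh2, and the groups overlapped in each. Hbb-y was at 0.11 ± 0.10 and ran from 0.0421 without knockout replicate 3 to 0.1812 without wildtype replicate 3. It averaged 13.60 in wildtype and 13.71 in the knockout, at percentile 99.9 of all genes by level. Whether the array can still read a rise at that level was not tested. Hba-x was at -0.40 ± 0.21, and at -0.63 without knockout replicate 3, where it was called (adjusted p = 0.0378). Hbb-bh2 was at -0.04 ± 0.08, and at 0.0250 without knockout replicate 2. Its signal was dim, averaging 5.92 in wildtype and 5.88 in the knockout, below the median of every array.

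Genes with the most similar pattern were found by the Euclidean distance over the 6 arrays between log2 values less each gene's own mean. Nearest to Sox6 were Klf3, E2f2 and Apol8, at distances of 0.26, 0.37 and 0.37 and with changes of -2.59, -2.54 and -2.91. Nearest to Bcl11a were Fam78a, Tprgl and Lmo2, at 0.08, 0.11 and 0.11, with changes of -1.02, -1.06 and -1.01. Lmo2 is the LIM bridge of the Gata1 and Tal1 complex. Nearest to Zbtb7a were Cdkn2d, an INK4 inhibitor of the cell cycle, Trmo and Crip1, at 0.14, 0.16 and 0.17, with changes from -1.14 to -1.11. Nearest to Myb were Cfap161, Pgp and Traf3ip1, at 0.04, 0.05 and 0.05, and none of the 3 was called. The distances rest on 2 genotypes and mostly reflect the size of the change.

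Positions were used only for neighbours, from the RefSeq gene order of build GRCm38.p6. Members were spread over 5 chromosomes, and 4 of them (Zbtb7a, Myb, Nr2c1 and Lin28b) are on chromosome 10. Of the 20 nearest measured protein-coding neighbours, 1 on either side of each member, 6 were called. Among all genes 19.1% were called in either direction. The neighbours were looked up after the values were seen, and joint change of a region was not tested. Hace1, a ubiquitin ligase gene next to Lin28b, fell with it, reading 10.34, 10.34 and 10.32 in wildtype and 9.49, 9.66 and 9.59 in the knockout, a change of -0.75 ± 0.08 (limma adjusted p = 6.6e-05). Ahi1, next to Myb, rose by 0.54 ± 0.09 (limma adjusted p = 0.00203), while Hbs1l on the other side of Myb was not called. Around Bcl11a, Papolg was at 0.39 ± 0.09 and Fancl at -0.34 ± 0.08; both were called. The call of Papolg was lost when wildtype or knockout replicate 2 or 3 was left out, that of Fancl when knockout replicate 1 or 2 was left out, and both over every probe set and without moderation. Fgd6 next to Nr2c1 fell by 0.51 ± 0.08 and Poli next to Mbd2 rose by 0.48 ± 0.09, each against the direction of its neighbour. The neighbours of Sox6 and Zbtb7a were not called.

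**Figure D4:**
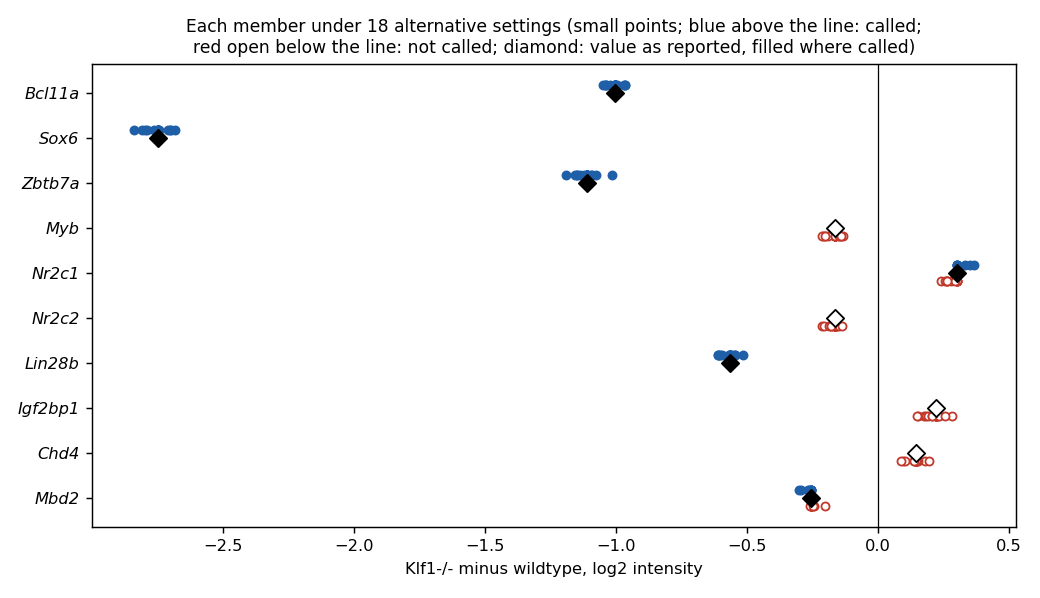
Change of each regulator, as knockout minus wildtype log2 intensity, as reported (diamond) and under 18 alternative settings; blue points above the line were called and red open points below it were not. Sox6, Zbtb7a, Bcl11a and Lin28b were called under all 18, while Nr2c1 and Mbd2 have points on both sides.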

How the data were processed

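The authors deposited probe set intensities. RMA and version 1.8.6 of Affymetrix Power Tools are named in the submitters' processing notes. Their genome build and probe annotation: not given in the sources used here. They ran from 5.6 to 27245, a linear scale, and log2 was taken. RMA makes the arrays alike in distribution, which hides any shift in the total RNA of a liver. Median log2 intensity was between 6.71 and 6.78 per array. Of 34760 probe sets 21640 carried 1 gene, 1321 several and 11799 none named here; a gene was its brightest single-gene probe set. Groups and numbers came from the sample titles. No label says whether embryos were littermates or came from separate litters. The p-values rest on the spread between these arrays, which eBayes draws for each gene toward the spread of all genes. Each embryo had an array of its own, so differences between embryos and between arrays cannot be told apart. The number of arrays limits the precision. The genotype comparison used limma 3.58.1 under R 4.3.3 (lmFit, then eBayes), with group as the sole term, and the script was tested on simulated data. Levels of different probe sets were used only to pick the brightest, to add up marker lists and to mark very dim or bright genes. Members and gene lists were chosen with earlier results of these data known. Named were all members, their listed paralogs, the called genes of each list (at most 6 by size), globins and, for Sox6, Bcl11a, Zbtb7a and Myb, the 3 genes nearest in pattern; genes of the marker lists fall under this rule but are given as counts. Uncalled list genes, let-7 precursors and neighbours were picked with their values in view. The 18 alternatives covered filters on dim genes, other probe set rules, array weights, other variance models, the replicate number as a block, a stricter threshold, quantile normalization, centring at the 75th percentile or by housekeeping deviations, and leaving out each array.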

Additional observations from a re-analysis of the deposited data

How the results depend on the processing

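The falls of Sox6, Bcl11a, Zbtb7a and Lin28b were called under all 18 settings, with changes from -2.84 to -2.68, -1.05 to -0.96, -1.19 to -1.01 and -0.61 to -0.51. The count of lower members was 5 or 4 throughout. The count of higher members, 1, went to 0 after quantile normalization, with both centrings, over every probe set, without moderation, with the replicate block and at an adjusted p under 0.01, and to between 0 and 1 with 1 array left out; Nr2c1 kept a change of 0.24 to 0.37. Mbd2 ran from -0.30 to -0.20, and lower NuRD subunits numbered 0 after quantile normalization, over every probe set, with the replicate block and at 0.01, and 0 to 1 with 1 array left out. Lower genes among the other regulators numbered 3 at 0.01. Higher ones numbered 1 after quantile normalization, with both centrings, over every probe set and at 0.01, and 1 to 2 with 1 array left out. Lower genes of the Lin28 list numbered 2 with the 75th percentile centring and 1 to 2 with 1 array left out. The pair differences moved to 0.073 for Igf2bp1 and Igf2bp3 with the mean of probe sets, and after quantile normalization to -0.14 for Mbd2 and Mbd1 and -0.13 for Mbd2 and Mbd4. Signs of uncalled genes turned: with 1 array left out, Sox5 ran from -0.12 to 0.0066, Mbd3 from -0.0296 to 0.0939, Mbd4 from -0.0596 to 0.0218 and Hbb-bh2 from -0.0995 to 0.0250; Mbd4 was at 0.0060 with array weights and Hbb-bh2 at 0.0126 after quantile normalization. The causes were not tested. Over all genes, calls numbered 3809, and 2083 without moderation, 2362 over every probe set, 1995 at 0.01, 2409 without knockout replicate 2 and 2414 without knockout replicate 3. Of the calls 43.2% were lower, and 55.5% with the 75th percentile centring.

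Numbers of the replicates were not shown to pair arrays: deviations from the group means correlated at -0.156, -0.224 and 0.183 for numbers 1, 2 and 3. The fit with the replicate block called 3498 genes, and its counts of members were 4 lower and 0 higher. Among the members, paralogs, globins and called genes of the regulator lists, it ended the calls of Nr2c1, Mbd2 and Pogz and called Bcl11b and Hba-x. Depth is not known for arrays; 7 of the 10 let-7 precursors, Mirlet7c-1 among them, lay below the lower quartile of the arrays.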
